A study of Mus musculus with 21 samples.

Results

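The comparison described here set single lobes of the mouse right lung against the whole right lung. Male C57BL/6 mice in 7 conditions provided the tissue, with 3 arrays per condition: a medial lobe array, a cardiac lobe array and an array of the entire right lung. All 21 arrays of the series entered: 14 from single lobes and 7 from the whole lung. For each condition the mean of the medial and cardiac arrays minus the whole lung array gave 1 difference, so that 7 paired differences were available for every gene. The conditions were day 0 without pneumonectomy, days 3, 7, 14, 28 and 56 after left pneumonectomy, which is removal of the whole left lung, and day 56 after sham surgery. No allele or drug distinguished any group. The labels used here give neither the age of the mice nor how many animals stood behind an array. Whether a mouse contributed to more than 1 region is not stated either, nor whether the whole lung samples held the medial and cardiac lobes. With 1 array per region and condition, the conditions served as replicates of the regional difference. Unless another test is named, p-values and standard errors of genes come from 1 fit of all 21 arrays. The spread behind them therefore also holds the scatter between the medial and cardiac arrays, not only that of the 7 paired differences. At genes whose difference varied widely between conditions, the printed standard error can be smaller than the 7 differences alone would give.

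A lobe taken alone is mostly alveolar tissue: flat type I cells across which gas passes, cuboidal type II cells that make surfactant, capillaries, and macrophages in the air spaces. A whole lung can also bring the large bronchi at the hilum. There basal cells act as stem cells, secretory cells make mucus and antimicrobial proteins, and cartilage, vessels, fat and lymphoid tissue lie close by. The labels do not say how much hilar tissue was included. The pleura, a sheet of mesothelial cells, covers the outside of every lobe. Small nucleolar RNAs guide the chemical modification of ribosomal RNA and are processed from the introns of host transcripts, and microRNAs are short RNAs that pair with messenger RNAs through a seed near their 5′ end.

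All values are the deposited log2 values of the arrays, and a positive difference means a higher value in the lobes. Defining lung genes were high on all 21 arrays: the surfactant gene Sftpc lay between 13.2 and 13.5, the type I gene Ager between 11.7 and 12.6, and Scgb1a1, the secretoglobin of club cells, between 12.8 and 13.4. The labels give a single hybridization date for all 21 arrays, so no batch by date could be formed. A pair of measures of the arrays themselves moved with the region. The interquartile range of an array (the spread of the middle of its values over all 35556 probe sets) was 3.58 ± 0.12 for the whole lung (SD, n = 7), 3.75 ± 0.04 for the medial lobe and 3.76 ± 0.10 for the cardiac lobe. It was wider in the lobes in 7 of 7 conditions, by 0.18 ± 0.11 (SD, n = 7). A two-sided exact permutation test over sign changes of the 7 differences gave p = 0.0156, the smallest that this test can give. The test was chosen with earlier results of these data known, so this p only describes the 7 differences. The mean of 59 small nucleolar, Cajal body and spliceosomal RNA genes was 8.56 ± 0.72 (SD, n = 7) in the whole lung, 7.18 ± 0.14 in the medial lobe and 7.30 ± 0.44 in the cardiac lobe.

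**Figure D1:**
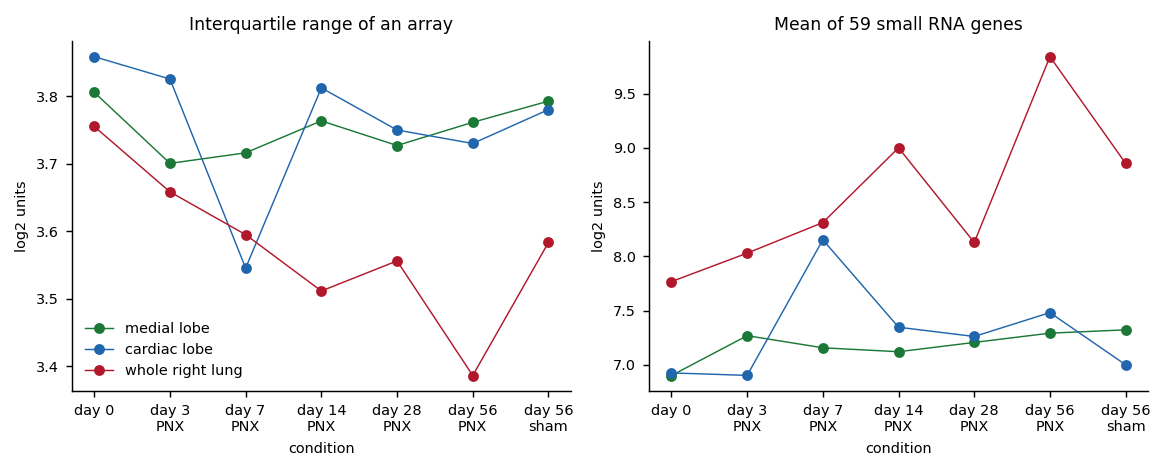
Interquartile range of each array (left) and mean log2 value of 59 small RNA genes on it (right), for the 7 conditions on the x axis (PNX, left pneumonectomy) and the 3 regions by colour, 1 array per point. The whole lung array of day 56 after pneumonectomy has the narrowest range, 3.39, and the highest small RNA mean, 9.84; the cardiac array of day 7 stands away from the other cardiac arrays in both.

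A pair of arrays stood apart in these measures. The whole lung array of day 56 after pneumonectomy had an interquartile range of 3.39, against 3.51 to 3.76 on the other whole lung arrays. The cardiac array of day 7 had 3.55, against 3.73 to 3.86 on the other cardiac arrays, and a small RNA mean of 8.15, against 6.90 to 7.48. Results are therefore also given without both arrays. The median of an array was lower in the lobes by 0.09 ± 0.04 (SD, n = 7), in 7 of 7 conditions, but this direction turned when only probe sets with 1 gene symbol were counted, where lobes lay higher by 0.05.

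Lobes and whole lung differed at many genes. Of 19938 genes, 5794 (29.1%) were called at an adjusted p under 0.05 by limma: 4042 (20.3%) were higher in the lobes and 1752 (8.79%) were lower. All 14 lobe arrays lay above all 7 whole lung arrays at 112 genes (0.562%) and below them at 22 genes (0.11%). The median difference over all genes was 0.01. A limma fit of the 7 paired differences alone called 3809 genes. Without the 2 arrays that stood apart, 6640 genes were called, 4740 higher and 1900 lower. The split between directions followed the way the arrays were scaled. It was 2915 higher and 3542 lower when each array was centred on its median, 1776 and 2244 when the arrays were also scaled to a common interquartile range, 1848 and 1591 after quantile normalization, and 1770 and 1721 after cyclic loess.

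Direction also followed brightness. In the dimmest decile of genes by mean value 2 were higher in the lobes and 82 lower, with a median difference of -0.04. In the 4th decile 114 were higher and 397 lower, with a median of -0.08. In the 9th decile 825 (41.4%) were higher and 74 (3.71%) lower, with a median of 0.17, and in the brightest decile 779 (39.1%) were higher and 107 lower. The counts of bright cell type lists below stand beside these shares of equally bright genes as well as beside the 20.3% over all genes. Whether the wider range of the lobe arrays had a part in this was not tested.

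**Figure D2:**
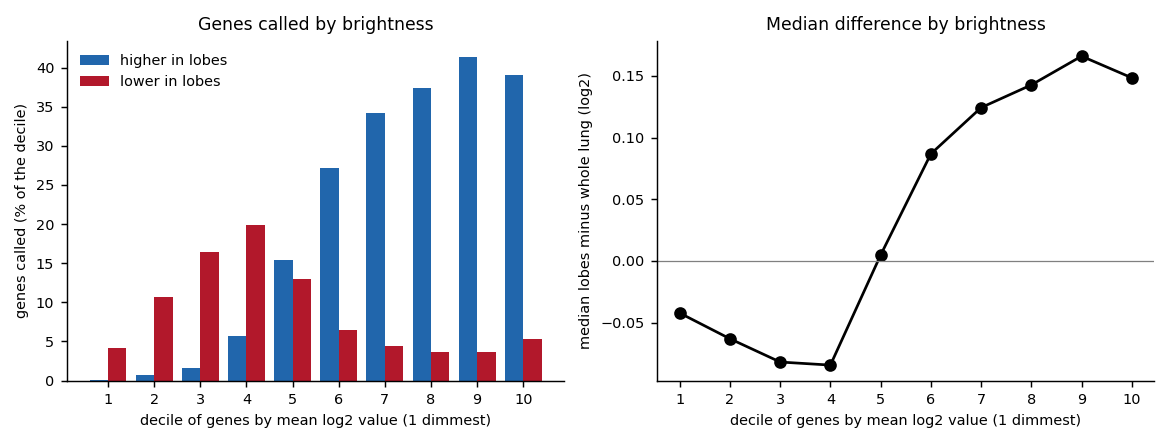
Left, the share of genes called higher (blue) or lower (red) in the lobes, in percent of each decile of the 19938 genes ordered by mean log2 value; right, the median difference of each decile on the log2 scale. Calls in favour of the lobes rise from 0.1% in the dimmest decile to 41.4% in the 9th.

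Small RNAs formed the list with the lowest median. Of 59 genes 53 were lower in the lobes and none was higher, with a median difference of -1.30. In the 6th decile of brightness, which holds the median level of the list, 6.47% of genes were lower. The mean of the list was lower in the lobes in 7 of 7 conditions, by 1.32 on average, with differences between -0.66 at day 7 and -2.45 at day 56 after pneumonectomy. This list served above as a measure of the arrays, so it is described here and not tested as a set. Snord118, which encodes the U8 nucleolar RNA needed for maturation of large subunit ribosomal RNA, ran from 5.88 to 11.02 in the lobes (median 7.04) and from 8.28 to 13.02 in the whole lung (median 11.47). The regions overlapped for this gene, and its difference was -3.84 ± 0.54 (SE, n = 7 conditions; adjusted p = 0.000216). Snord22, a box C/D RNA that lies within the host gene Snhg1, ran from 4.80 to 6.06 in the lobes (median 5.42) and from 6.58 to 9.44 in the whole lung (median 7.70). Every lobe array was below every whole lung array, and the difference was -2.59 ± 0.23 (adjusted p = 1.57e-05). The box H/ACA RNAs Snora33 and Snora69 differed by -2.90 ± 0.32 and -2.52 ± 0.53, and their paired differences had SDs of 1.15 and 2.23. Snora69 differed by only -0.30 at day 0 but by -5.59 at day 56 after pneumonectomy.

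A pair of host transcripts and a pair of other short noncoding RNAs were among the 12 largest falls under the naming rule. The largest fall among named genes outside the short RNA lists was that of Snhg17, a small nucleolar RNA host gene, which ran from 7.73 to 9.45 in the lobes (median 8.22) and from 9.26 to 11.81 in the whole lung (median 10.15). It was 4.27-fold lower in the lobes (-2.10 ± 0.24, adjusted p = 5.73e-05), with differences from -1.38 at day 0 to -3.46 at day 56 after pneumonectomy. Snhg15, another such host, was lower by 1.09 (adjusted p = 3.33e-05). The Y RNA Rny1, a small cytoplasmic RNA bound by the Ro protein, differed by -1.40 ± 0.16, and the vault RNA Vaultrc5 by -1.26 ± 0.18. The list of host genes fixed for this work did not move one way. Of its 9 members 3 were higher and 3 lower, with a median of -0.03. In the brightest decile, which holds the median level of the list, 39.1% of genes were higher and 5.37% lower. Nop58 and Eif4a1 rose by 0.26 and 0.22, and Gas5 and Eif4a2 fell by 0.28 and 0.19. Of these, Eif4a1 turned to -0.07 when arrays were scaled to one interquartile range, and each of the 4 lost its call when 1 or more conditions or arrays were left out. Malat1 and Meg3, long RNAs retained in the nucleus, differed by -0.50 and -0.61. They belong to a list of 7 nuclear long noncoding RNAs with 3 lower and 1 higher, beside 19.9% lower and 5.72% higher in the 4th decile.

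Of 300 microRNA genes measured, 4 are host transcripts. In the lobes 93 of the 300 were lower and none was higher, with a median difference of -0.10. In the 2nd decile of brightness, which holds their median level, 10.7% of genes were lower. The count of 93 fell to 58 when day 56 after pneumonectomy was left out. It was 65 lower and 3 higher after scaling to one interquartile range. The 4 with the largest difference are shown by their mature sequences, because the array probes lie in the precursor genes and cannot tell the arms apart. The sequences are RefSeq's on GRCm38.p6, where 270 of the 300 genes matched, and capitals mark the seed, bases 2 to 8. Mir6516 lies on chromosome 11 within Snhg20 (5p arm at chr11:117077370-117077391, plus strand), Mir18 on chromosome 14 in the Mir17 cluster (5p arm at chr14:115043867-115043889, plus strand), Mir15a on chromosome 14 within Dleu2 (5p arm at chr14:61632075-61632096, minus strand) and Mir341 on chromosome 12 within Rian (5p arm at chr12:109611521-109611541, plus strand).
miR-6516-5p: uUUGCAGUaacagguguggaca
miR-6516-3p: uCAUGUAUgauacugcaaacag
miR-18a-5p: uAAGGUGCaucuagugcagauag
miR-18a-3p: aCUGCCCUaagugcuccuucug
miR-15a-5p: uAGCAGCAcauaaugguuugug
miR-15a-3p: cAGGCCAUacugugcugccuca
miR-341-5p: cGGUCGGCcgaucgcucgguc
miR-341-3p: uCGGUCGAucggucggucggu
The 8 arms carry 8 different seeds, so no shared seed joins the 4 genes.

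Mir6516 ran from 6.80 to 9.15 in the lobes (median 7.23) and from 8.17 to 11.80 in the whole lung (median 9.34). It was 5.36-fold lower in the lobes (-2.42 ± 0.37, adjusted p = 0.000439), and its differences ran from -1.08 at day 0 to -4.51 at day 56 after pneumonectomy. Mir15a ran from 5.88 to 6.81 in the lobes (median 6.30) and from 6.60 to 8.03 in the whole lung (median 7.33), a difference of -0.88 ± 0.09 (adjusted p = 2.62e-05) with the same sign in 7 of 7 conditions. Mir18 differed by -0.90 ± 0.18, with 1 condition, the sham, in the opposite direction at 0.24, and Mir341 by -0.73 ± 0.13. Neighbours of these genes were chosen after their values were seen. In the cluster of Mir18, Mir17 differed by -0.10, Mir20a by -0.03 and Mir19b-1 by -0.10, none past the threshold, and Mir19a by -0.21 (adjusted p = 0.0133). Beside Mir15a, Mir16-1 differed by -0.12 and the host Dleu2 by 0.02, neither past the threshold. Around Mir341, Meg3 differed by -0.61 (adjusted p = 0.000794), below 0 in 7 of 7 conditions, and the host Rian by -0.10, not past the threshold.

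Type II cell genes were higher in the single lobes, at 19 of 20 members, with a median difference of 0.53. The lists were chosen with earlier results of these data known, so their counts describe and do not test. In these bulk samples fewer cells of a type and less RNA per cell cannot be told apart. The list mean ran from 11.61 to 12.05 on the 14 lobe arrays and from 10.89 to 11.47 on the 7 whole lung arrays, without overlap. Lgi3, a secreted leucine-rich repeat protein, ran from 10.78 to 11.73 in the lobes (median 11.38) and from 9.59 to 10.82 in the whole lung (median 10.44). The 2 regions overlapped only at their edges, and the difference was 0.95 ± 0.09 (adjusted p = 2.62e-05). Etv5, a transcription factor of type II cells, ran from 9.69 to 10.48 in the lobes and from 8.78 to 9.62 in the whole lung, so that every lobe array was above every whole lung array (0.84 ± 0.08, adjusted p = 2.11e-05). Hc, complement component C5, differed by 0.88 ± 0.11 and Lamp3, a membrane protein of lamellar bodies, by 0.74 ± 0.10. The surfactant protein genes Sftpd, Sftpa1 and Sftpb rose by 0.38, 0.33 and 0.25. Sftpc, the brightest of them, was the single member not called, with a difference of 0.06.

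The type II list kept its direction in each condition and setting tried, but not its count. Its median was lowest at day 0, at 0.24, and highest at days 3 and 14 after pneumonectomy, at 0.69. The difference in interquartile range between lobes and whole lung was 0.04 at day 7, 0.08 at day 0 and 0.10 at day 3. It was 0.18 at day 28, 0.20 in the sham, 0.28 at day 14 and 0.36 at day 56 after pneumonectomy. The type II medians in that order were 0.47, 0.24, 0.69, 0.57, 0.55, 0.69 and 0.46. Days 7 and 56 after pneumonectomy hold the 2 arrays that stood apart. Whether the median follows the range was not tested. The count was 19 without the 2 arrays that stood apart, 17 to 19 when a condition was left out, 18 after quantile normalization and 15 after cyclic loess. It was 10 higher and 1 lower after scaling to one interquartile range, 11 higher with that range as a covariate and 9 higher with the small RNA mean as a covariate. The region and these 2 measures moved together, so their parts cannot be told apart in this design.

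**Figure D3:**
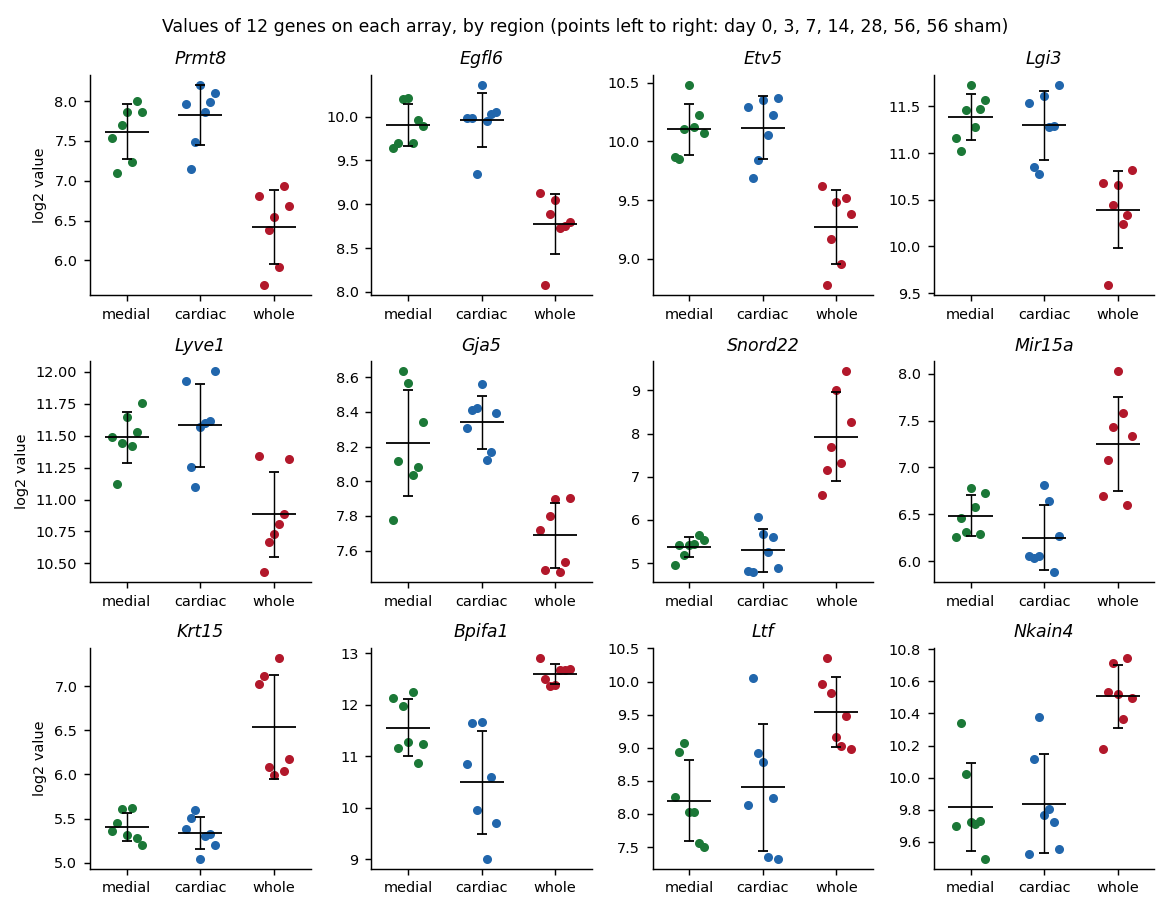
Log2 values of 12 genes on each array, in panels by gene, with the 3 regions on the x axis; points are the 7 conditions, horizontal bars the mean and whiskers 1 SD. For Prmt8, Egfl6 and Etv5 all 14 lobe arrays lie above all 7 whole lung arrays, and for Snord22, Krt15 and Bpifa1 all lie below; the y axes do not start at 0.

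Type I cell genes shifted less, with 7 of 14 higher, none lower and a median of 0.20. As for the type II list, the median level lies in the brightest decile, where 39.1% of all genes were higher. Gprc5a, a retinoic acid-inducible receptor, differed by 0.67 ± 0.13, Spock2, a matrix proteoglycan, by 0.58 ± 0.09 and Aqp5, the apical water channel, by 0.43 ± 0.07. Igfbp2 rose by 0.34 ± 0.11 (adjusted p = 0.0296), but differed by 0.13 after scaling to one interquartile range, past no threshold, and lost its call without day 3, 7, 14 or 28 or the sham. This is the one alveolar list whose direction turned with scaling: after scaling to one interquartile range 2 members were higher and 3 lower, with a median of -0.09.

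Endothelial genes were the next group. Of 21 capillary genes 17 were higher and none lower, with a median of 0.42, against 39.1% higher in the brightest decile, which holds the median level of the list; Fibin, Sema3c, Kdr and Sox18 were not called. Emcn, a sialomucin of capillaries and veins, ran from 9.94 to 11.18 in the lobes (median 10.96) and from 9.73 to 10.69 in the whole lung (median 10.22). The ranges overlapped, and the difference of 0.72 ± 0.15 (adjusted p = 0.00301) ranged from 0.17 at day 0 to 1.37 in the sham. Aplnr, the apelin receptor, differed by 0.60 ± 0.14, Tek, the angiopoietin receptor, by 0.56 ± 0.10, and Nostrin, which binds endothelial nitric oxide synthase, by 0.55 ± 0.12. The capillary count was 17 without the 2 arrays that stood apart and 15 to 19 without single conditions. It was 8 after scaling to one interquartile range, 11 after quantile normalization or cyclic loess, 1 with the interquartile range as a covariate and 0 with the small RNA mean as a covariate. With that last covariate Emcn and Nostrin turned to -0.16 and -0.06, neither past the threshold.

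Of 15 genes of larger vessels 7 were higher and none lower, with a median of 0.33, in the 7th decile of brightness, where 34.2% of genes were higher. The lymphatic list below has its median level in the 6th decile, where 27.1% were higher. Gja5, the connexin of arterial endothelium, ran from 7.78 to 8.63 in the lobes (median 8.32) and from 7.48 to 7.91 in the whole lung (median 7.72). It differed by 0.59 ± 0.07 (adjusted p = 5.27e-05), in the same direction in 7 of 7 conditions. Vwf, the von Willebrand factor gene, differed by 0.66 ± 0.13, Slc6a2, the noradrenaline transporter, by 0.60 ± 0.14 and Hey1, a Notch target, by 0.49 ± 0.09. Of 9 lymphatic genes 5 were higher and Fxyd6 was lower (-0.20), with a median of 0.25. Mmrn1, the multimerin made by lymphatic endothelium and platelets, was 2.34-fold higher in the lobes (1.22 ± 0.18, adjusted p = 0.000261). It ran from 6.17 to 8.11 in the lobes and from 5.87 to 6.80 in the whole lung, and the lowest lobe value was that of the cardiac array of day 7. Lyve1, the hyaluronan receptor of lymphatic vessels, had a median of 11.55 in the lobes and of 10.81 in the whole lung (0.65 ± 0.07, adjusted p = 3.77e-05). Pard6g and Flt4, which encodes the receptor for VEGF-C, differed by 0.70 ± 0.10 and 0.50 ± 0.08. With the small RNA mean as a covariate none of the 9 lymphatic genes was called, and with the interquartile range 1.

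Among genes outside the lists, Prmt8 had the largest rise under the naming rule. This membrane-attached arginine methyltransferase ran from 7.10 to 8.21 in the lobes (median 7.87) and from 5.69 to 6.94 in the whole lung (median 6.54). All lobe arrays lay above all whole lung arrays, and it was 2.46-fold higher (1.30 ± 0.09, adjusted p = 2.18e-06), with differences from 0.94 to 1.64 over the 7 conditions. Egfl6, a secreted protein with EGF repeats, ran from 9.34 to 10.37 in the lobes and from 8.08 to 9.13 in the whole lung (1.16 ± 0.12, adjusted p = 3.19e-05). Epha7, an ephrin receptor, ran from 7.00 to 7.72 in the lobes and from 6.08 to 6.77 in the whole lung (0.99 ± 0.09, adjusted p = 1.57e-05). Both were without overlap between regions. Transporters and channels were among the 12 largest rises: the inward rectifier Kcnj2 differed by 1.20 ± 0.21, the organic anion transporter Slco4c1 by 1.12 ± 0.15, the peptide transporter Slc15a1 by 1.01 ± 0.12 and the zinc transporter Tmem163 by 0.96 ± 0.13. Kcnj2 differed by 0.08 at day 0 and by 2.41 in the sham. Chia1, an acidic chitinase, rose by 1.02 ± 0.09, Arg2, the mitochondrial arginase, by 1.02 ± 0.15, Ociad2 by 1.03 ± 0.20 and Serpinb10, a serine protease inhibitor, by 1.01 ± 0.18.

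Genes of basal cells, the stem cells of large airways, were lower in the lobes. Of 12 members 9 were lower and none higher, with a median of -0.20. In the 4th decile of brightness, which holds the median level of the list, 19.9% of genes were lower. The list mean ran from 5.43 to 5.77 in the lobes and from 5.73 to 6.31 in the whole lung. Krt15, a basal cell keratin, ran from 5.05 to 5.62 in the lobes (median 5.35) and from 5.99 to 7.32 in the whole lung (median 6.17). Every lobe array was below every whole lung array (-1.16 ± 0.13, adjusted p = 5.94e-05). The differences of Krt15 were largest at days 28, 0 and 3, at -1.85, -1.65 and -1.64, and smallest at day 7, at -0.48. Krt5, its sister keratin, differed by -1.02 ± 0.26 (adjusted p = 0.0106), of which day 28 gave -3.21 and each other condition between -0.16 and -1.48. Aqp3, a water channel of basal cells, differed by -0.71 ± 0.11 and Pkp1, a desmosomal protein, by -0.28 ± 0.08. Trp63, the master transcription factor of basal cells, fell by 0.20. The count of 9 was 3 lower and 1 higher without day 28, 4 lower without day 56 after pneumonectomy, 5 lower without day 0, day 14 or the sham, and 6 lower without the 2 arrays that stood apart. It was 3 lower in the fit of the 7 paired differences and after quantile normalization, and 2 and 1 lower with the small RNA mean and the interquartile range as covariates. Without day 28 Pkp1 differed by -0.21, no longer past the threshold.

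Secreted products of airway epithelium were lower in the lobes too. Of 17 club cell genes 8 were lower and none higher, with a median of -0.15, beside 5.37% of genes lower in the brightest decile. Bpifa1, an airway surface protein with antimicrobial activity, ran from 9.01 to 12.25 in the lobes (median 11.21) and from 12.36 to 12.90 in the whole lung (median 12.67). No lobe array reached the lowest whole lung array (-1.57 ± 0.30, adjusted p = 0.00178). Reg3g, an antimicrobial lectin, differed by -1.30 ± 0.26, Bpifb1, a relative of Bpifa1, by -0.88 ± 0.22 and Sult1d1, a sulfotransferase, by -0.85 ± 0.23. Reg3g, Bpifb1 and Sult1d1 were called for the cardiac lobe against the whole lung, but not for the medial lobe (limma adjusted p = 0.052, 0.085 and 0.55). The secretoglobins divided: Scgb3a1 and Scgb3a2 fell by 0.36 and 0.31, whereas Scgb1a1 differed by -0.11 and was not called. The club cell count was 13 lower after scaling to one interquartile range, 11 after cyclic loess, 6 with the small RNA mean as a covariate and 5 with the interquartile range as a covariate. None of its members was higher under those settings.

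Mucous and gland genes had the lowest median of the cell type lists, -0.61, with 6 of 11 lower and none higher. In the 6th decile of brightness, which holds the median level of the list, 6.47% of genes were lower. Clca1, a secreted goblet cell protein, ran from 5.21 to 11.73 in the lobes (median 7.14) and from 5.96 to 11.76 in the whole lung (median 10.30). The regions overlapped over nearly their whole ranges, and the difference was -1.80 ± 0.47 (adjusted p = 0.0111), between -0.20 at day 7 and -4.72 at day 56 after pneumonectomy. Ltf, the lactoferrin of serous glands and neutrophils, was steadier, with a difference of -1.24 ± 0.17 (adjusted p = 0.000174) and a range over conditions of -0.75 to -1.77. Tff2, a trefoil peptide, differed by -1.10 ± 0.23 and the protein disulfide isomerase Agr2 by -0.82 ± 0.29 (adjusted p = 0.0446). Agr2 lost its call without day 0, 14, 28 or 56 or the sham, with differences of -0.71 to -0.87. The list had 3 lower without day 14 or day 56 after pneumonectomy, or without the day 56 whole lung array alone, and 1 lower with either array measure as a covariate. The neutrophil list had 1 of 15 higher, Lcn2 (0.55), and none lower, beside 15.4% higher and 13.0% lower in the 5th decile. Its median ran from 1.13 at day 14 to -1.08 in the sham. Which cells gave the Ltf difference was not tested.

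Ciliated cell genes shifted little, with a median level in the 7th decile of brightness, where 4.47% of genes were lower. Of 20 members 4 were lower and none higher, with a median of -0.09: the ciliary proteins Hydin (-0.51 ± 0.14), Dnah5 (-0.47 ± 0.10), Cfap43 (-0.39 ± 0.09) and Dnah9 (-0.33 ± 0.08). Their differences were largest at day 7, at -1.36, -0.97, -0.71 and -0.68. The cardiac array of day 7, which stood apart above, had a ciliated list mean of 7.42, against 8.05 to 8.25 on the other cardiac arrays. Hydin and Cfap43 had the opposite sign at day 56 after pneumonectomy, at 0.24 and 0.02. Foxj1, the master regulator of motile cilia, differed by -0.02. With the small RNA mean as a covariate 17 of the 20 were called lower, more than without it. Hydin differed by -0.45 without day 28, no longer past the threshold, and Cfap43 by -0.23 when its probe sets were averaged, also not called.

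**Figure D4:**
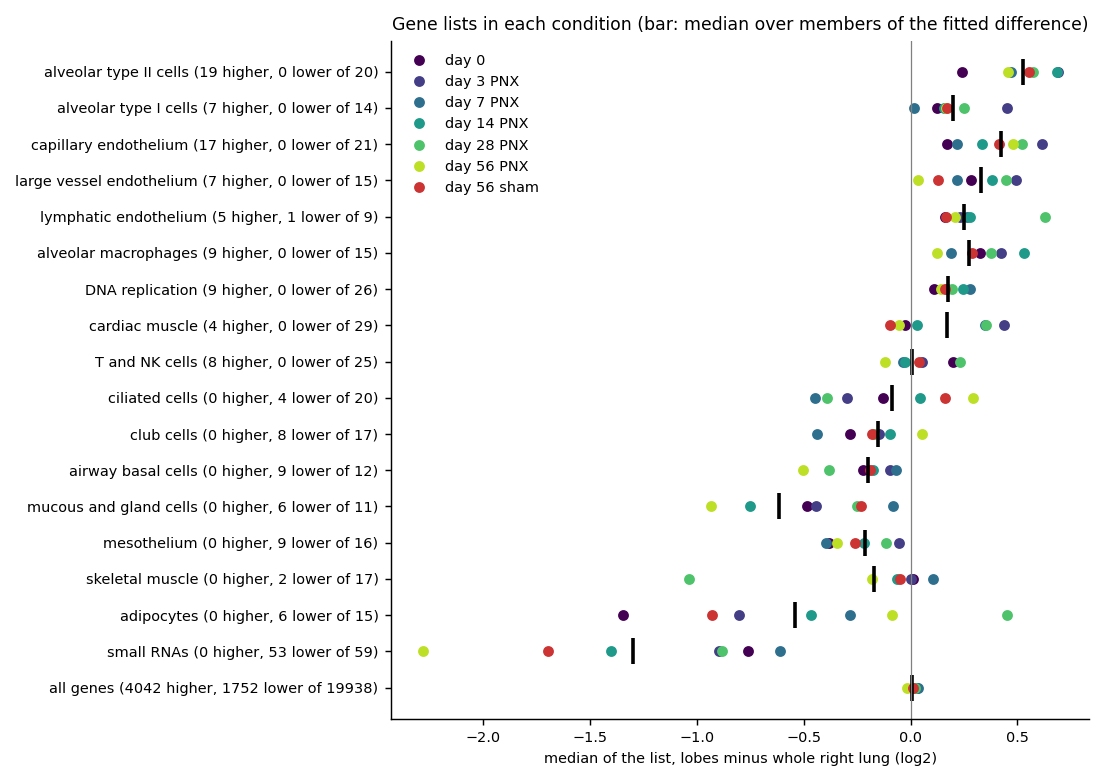
Median difference, lobes minus whole right lung, on the log2 scale (x axis) of 17 gene lists and of all genes (y axis, with the members called in each direction); coloured points are the 7 conditions (PNX, left pneumonectomy) and black bars the median of the fitted differences. The type II list is above 0 in every condition, from 0.24 to 0.69, the small RNA list is below 0 in every condition, and the adipocyte list runs from -1.35 at day 0 to 0.45 at day 28.

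Mesothelial genes, of the lung surface, were lower in the lobes at 9 of 16 members and higher at none, with a median of -0.21 that was below 0 in each of the 7 conditions. In the brightest decile, which holds the median level of this list, 5.37% of genes were lower. Nkain4 ran from 9.49 to 10.38 in the lobes (median 9.73) and from 10.18 to 10.74 in the whole lung (median 10.52), with a difference of -0.68 ± 0.08 (adjusted p = 5.59e-05). Muc16, the mesothelial mucin, differed by -0.63 ± 0.11, Wt1, a mesothelial transcription factor, by -0.52 ± 0.09 and Aldh1a2, a retinoic acid synthesising enzyme, by -0.43 ± 0.06. These 4 had the same sign in 7 of 7 conditions, and the list count stayed between 7 and 9 when single conditions were left out. It was 12 after scaling to one interquartile range and 3 and 5 with the small RNA mean and the interquartile range as covariates.

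Adipocyte genes had 6 of 15 lower and none higher, with a median of -0.54, beside 13.0% of genes lower in the 5th decile of brightness. Retn, the adipokine resistin, ran from 6.96 to 8.83 in the lobes (median 7.58) and from 8.02 to 9.99 in the whole lung (median 8.45). It differed by -1.09 ± 0.16 (adjusted p = 0.000356) in 7 of 7 conditions. Cyp2e1 (-0.97 ± 0.24), the carbonic anhydrase Car3 (-0.93 ± 0.24) and the lipid droplet protein Plin1 (-0.82 ± 0.23) had the opposite sign in 1, 2 and 1 of the 7 conditions. At day 28 the list lay higher in the lobes by 0.45, and the cardiac array of that day had the highest list mean of all arrays, 8.95. The list had 2 and 3 lower with the small RNA mean and the interquartile range as covariates, 10 lower without day 28, and 3 lower without day 14 or without the sham. Plin1 was no longer past the threshold without day 14 (-0.75) or without the sham (-0.69).

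Few genes of muscle, lymphoid tissue and cartilage were called. The 17 skeletal muscle genes had 2 lower, Mybpc1 and Mybpc2, beside 16.4% lower in the 3rd decile of brightness. Their median difference was -0.17. Their median was -1.04 at day 28 and between -0.18 and 0.10 elsewhere, and the whole lung array of day 28 had a list mean of 6.77 against 5.43 to 5.92 on the 14 lobe arrays. The same whole lung array carried the largest difference of Krt5. Of 29 cardiac muscle genes, which mark the muscle sleeve of pulmonary veins, 4 were higher: Pln (0.81 ± 0.24), Cox6a2 (0.30 ± 0.10), Casq2 (0.27 ± 0.09) and Hspb7 (0.22 ± 0.07). In the 5th decile of brightness, which holds the median level of the list, 15.4% of genes were higher. All 4 genes lost their call in at least 2 of the 7 fits that left out a condition. The count of higher genes ran from 1 to 4, and without day 7 there were also 2 lower. Rag1 and Ptcra, used by developing T cells, were the 2 of 5 thymocyte genes that were lower, by 0.52 and 0.17. In the 2nd decile, which holds the median level of that list, 10.7% of genes were lower. The thymocyte median was between -0.21 and -0.43 from day 14 on and in the sham, and between 0 and 0.01 at days 0, 3 and 7, and none of its genes was called without day 14. The lymph node list of 4 genes had none called, with a median of -1.47 at day 0 and between -0.25 and 0.06 elsewhere. None of the 17 cartilage genes was called, beside 19.9% of genes lower in the 4th decile, with 15 of 17 below 0 and a median of -0.12. When day 7 was left out 8 were lower.

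Among immune cells, alveolar macrophage genes were higher at 9 of 15 members and lower at none, with a median of 0.27 and all 15 above 0. Their median level lies in the 9th decile, where 41.4% of genes were higher. Itgax, the integrin CD11c, ran from 8.71 to 9.54 in the lobes and from 8.37 to 8.90 in the whole lung (0.53 ± 0.06, adjusted p = 7.17e-05). The scavenger receptor Olr1 differed by 0.64 ± 0.13, Atp6v0d2, a proton pump subunit, by 0.51 ± 0.09, and Krt79 by 0.51 ± 0.07. The count was 10 without the 2 arrays that stood apart, 7 to 10 without single conditions and 4 after scaling to one interquartile range. Of 25 T and NK cell genes 8 were higher, beside 15.4% in the 5th decile of brightness, with a median of 0.01. They were led by the NK receptor Ncr1 (0.68 ± 0.16), the adhesion molecule Cd2 (0.57 ± 0.10) and the cytotoxic genes Nkg7 (0.52 ± 0.14) and Gzmb (0.41 ± 0.11), whereas Cd4 and Cd8a differed by -0.07 and -0.30 and were not called. Without day 14 the count was 4, and Nkg7 and Gzmb were no longer past the threshold. None of 20 B and plasma cell genes was called, beside 27.1% of genes higher and 6.47% lower in the 6th decile. Erythroid genes had 3 of 8 lower, with a median of -0.10, beside 19.9% lower in their decile. Platelet genes had 3 of 8 higher, with a median of 0.25, beside 34.2% higher in their decile. Without day 28 the erythroid count was 1 and the platelet count 0, and without day 0, 14 or 56 after pneumonectomy the platelet count was 1.

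DNA replication genes were higher at 9 of 26 members, with none lower and a median of 0.18. Their median level lies in the 6th decile of brightness, where 27.1% of genes were higher. Of 29 mitosis genes 2 were higher, beside 15.4% in the 5th decile. Mcm2 and Mcm4, subunits of the replicative helicase, differed by 0.44 ± 0.09 and 0.37 ± 0.08 in 7 of 7 conditions, the clamp loader subunit Rfc4 by 0.58 ± 0.19 and the ribonucleotide reductase subunit Rrm2 by 0.33 ± 0.11. Rfc4 differed by 1.58 at day 56 after pneumonectomy and without that day had a difference of 0.42, not past the threshold. The count was 4 without day 14 or the sham and 1 with no condition term. Leaving out day 3 raised the mitosis count from 2 to 12.

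Positional transcription factors, with a median level in the 6th decile of brightness (27.1% of genes higher, 6.47% lower), moved in both directions. Of 17 measured, 5 Hox genes were lower: Hoxb6 (-0.36 ± 0.07), Hoxa4 (-0.34 ± 0.09), Hoxb3 (-0.30 ± 0.06), Hoxb7 (-0.26) and Hoxb4 (-0.23). Hoxa5, Nkx2-1, the transcription factor of lung epithelium, and Tbx3 were higher, by 0.17, 0.28 and 0.28 ± 0.09. Hoxb3 and Hoxb6 had the same sign in 7 of 7 conditions, whereas Tbx3 lost its call after quantile normalization (0.14) and Hoxa4 without the sham (-0.30). Across the 1027 olfactory receptor genes, which encode odour receptors of the nasal epithelium, 98 were lower and 1 higher, with a median of -0.06. Over all genes 8.79% were lower, and in the dimmest decile, which holds the median level of this list, 4.11%. The lower count was 36 without day 56 after pneumonectomy, 39 without day 14 or without the sham, 54 without day 28 and 193 without day 7. The mean of olfactory and vomeronasal receptors was lower in the lobes by 0.06 ± 0.08 (SD, n = 7), in 5 of 7 conditions. Of the housekeeping lists, ribosomal proteins had 3 of 60 higher and 14 lower, and respiratory chain genes 4 of 77 higher and 13 lower. In the brightest decile, which holds the median level of both lists, 39.1% of genes were higher and 5.37% lower. Proteasome subunits had 6 of 39 higher and 1 lower, beside 41.4% higher and 3.71% lower in the 9th decile. When single conditions were left out, respiratory chain genes had 5 lower without day 14 or the sham and up to 15 without day 7, with 1 higher without day 14 and 8 without day 0. Ribosomal proteins had 1 to 4 higher and 10 to 19 lower. Proteasome subunits had 1 higher without day 14 and 8 without day 7, the fit in which 5 were lower.

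Each lobe on its own was also set against the whole lung; both comparisons use the same 7 whole lung arrays. The cardiac lobe differed at 4020 genes, 3066 (15.4%) higher and 954 (4.78%) lower, and the medial lobe at 4500, 3023 (15.2%) higher and 1477 (7.41%) lower. The type II median was 0.51 in the cardiac and 0.52 in the medial lobe, and the capillary median 0.36 and 0.43. Other lists had unlike medians. The club cell median was -0.30 in the cardiac and -0.01 in the medial lobe, the ciliated median -0.20 and 0.06, the mucous and gland median -0.35 and -0.79, and the mitosis median 0.30 and 0.07. The values below are single genes of the airway. Bpifa1 differed by -2.11 in the cardiac and -1.04 in the medial lobe, and Sult1d1 by -1.47 and -0.22 (adjusted p = 0.55 in the medial lobe). Clca1 went the other way, with -0.95 in the cardiac lobe (adjusted p = 0.22) and -2.65 in the medial. Cyp4a12b, a fatty acid hydroxylase with near-identical relatives, so that its identity is uncertain, differed by -2.60 in the cardiac and by -0.68 in the medial lobe (adjusted p = 0.069). The difference between the 2 lobes was not tested here.

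The regional difference was compared between the early days 3 and 7 after pneumonectomy and the other 5 conditions. No gene passed the threshold in this limma comparison of 2 against 5 paired differences, and 1290 of 19938 had an unadjusted p under 0.05. The 3 genes with the smallest p were Mb, Lyst and Bcl2l11. Mb, the muscle oxygen carrier myoglobin, was higher in the lobes at days 3 and 7, by 0.38 and 0.58, and lower in the other 5, by 0.16 to 0.54. Lyst, a regulator of lysosome size, was lower in the lobes at days 3 and 7, at -0.44 and -0.43, and higher in the others, by 0.03 to 0.57. Bcl2l11, which encodes the pro-apoptotic protein BIM, differed by -0.28 and -0.10 at days 3 and 7 and by 0.29 to 0.54 elsewhere. These genes were picked for their p-values and did not pass.

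**Figure D5:**
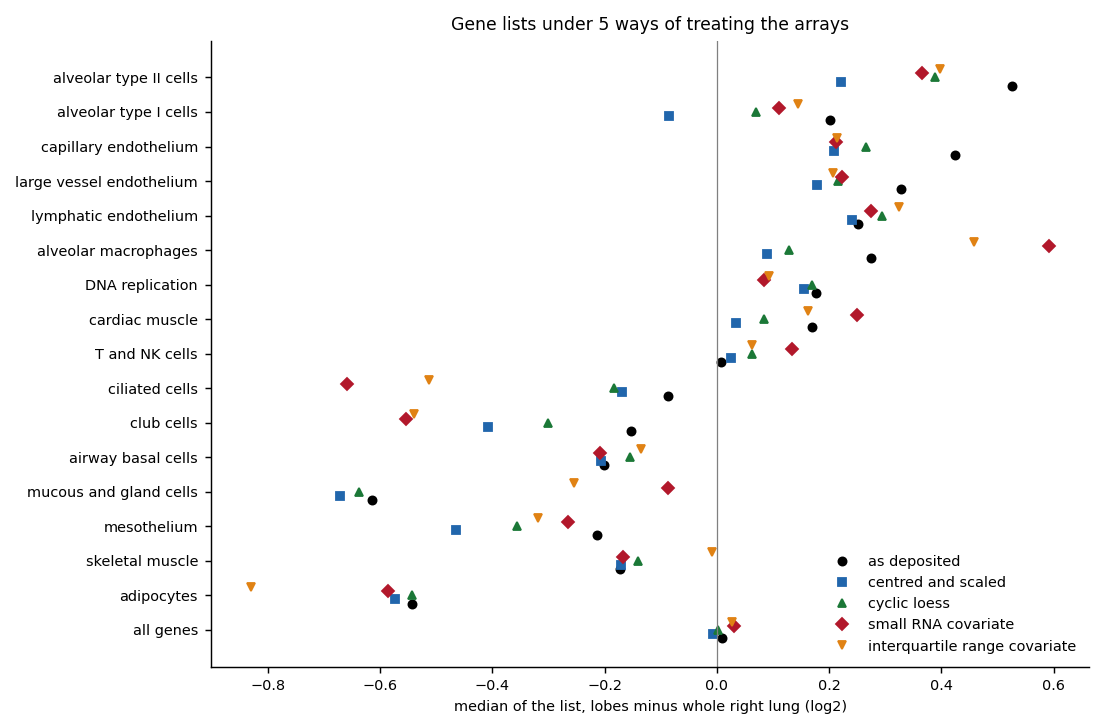
Median difference, lobes minus whole right lung, on the log2 scale (x axis) of 16 gene lists and of all genes (y axis) under 5 ways of treating the arrays, shown by symbol. Most lists keep their side of 0, and the type I list turns to -0.09 after scaling to one interquartile range.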

How the data were processed

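Total RNA of 21 samples (7 conditions by 3 regions) was labelled with biotin and hybridised to 1-colour Affymetrix arrays, per the labels. The deposited values are log2 values per probe set that the authors made with RMA (robust multi-array averaging: background correction, normalization between arrays and summary of probes), as the submitters' processing notes name it; version and genome build: not given in the sources used here. Rows of this log2 file are 35556 probe sets, with no columns outside the 21 samples; values run from 2.98 to 14.06. No 2 arrays were identical, and the lowest correlation between arrays was 0.963. Per the labels' protocols cDNA was primed at the 3' end, but the platform annotation belongs to a mouse array for whole transcripts; which probes met which RNA is therefore not settled. Arrays give no count, so precision is limited by the number of arrays.

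Of the probe sets 21789 had a single symbol in the platform annotation, 1621 had several and 12146 had none; 21698 matched the RefSeq gene table of GRCm38.p6, used for names, neighbours and microRNA sequences. Each of 19938 genes was represented by its probe set with the highest mean (999 had several). limma 3.58.1 in R 4.3.3 (lmFit and eBayes) fitted condition and region as additive terms to all 21 arrays, leaving 12 residual degrees of freedom. The condition is thus the block, and pairs the regions by label only, since shared animals are not stated. A gene was called where its p, adjusted over all genes (Benjamini-Hochberg), was under 0.05, and errors of fitted differences are standard errors. The procedure was tested on simulated data. The members, the 46 measured gene lists and the tests were chosen with earlier results of these data known.

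Named genes were the 12 largest differences in each direction among genes that passed with that sign in at least 6 of 7 conditions, leaving out predicted genes and short RNAs; the 4 largest among small RNAs and among microRNA genes; up to 4 passing members of a described list; and the 3 smallest p-values of the early comparison, where none passed. Other genes of the lists, the microRNA neighbours and the label markers were named after their values were seen. Alternatives changed the fit, gene summary, scaling, covariates and samples. Cyclic loess, and leaving out the day 56 pneumonectomy whole lung array alone, were added after the data were seen.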

Additional observations from a re-analysis of the deposited data

Results flagged for a closer look

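Of 111 series of 7 values examined, 7 held a value whose distance from its nearest neighbour was a large share of the range; chance gives about 1 such series in 20. Among the named genes, Arg2 differed by 2.05 at day 14 after pneumonectomy, against 0.46 to 1.08 in the other 6 conditions. Hey1 differed by 1.13 at day 56 after pneumonectomy, against 0.12 to 0.51. Itgax differed by 0.22 at day 7, against 0.52 to 0.67, and Krt79 by 1.02 at day 3, against 0.27 to 0.57.

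The other values concern arrays. The interquartile range of the cardiac array of day 7 was 3.55, against 3.73 to 3.86 on the other cardiac arrays. The mean of olfactory and vomeronasal receptor genes was 4.32 on that same array, against 4.15 to 4.19, and 4.13 on the medial array of day 0, against 4.17 to 4.20 on the other medial arrays.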

How the results depend on the processing

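The region moved with the small RNA mean and the interquartile range of the arrays, and 7 conditions with 1 array per region limit every statement above. Against 5794 calls as deposited, there were 3809 when the 7 paired differences were fitted (936 lower; 3751 genes shared), 3439 after quantile normalization (1848 higher; 2667 shared), 3491 after cyclic loess (1770 higher; 2717 shared), 1811 with the small RNA mean as a covariate (857 higher, 954 lower; 483 genes shared, 403 in the same direction), 925 with the interquartile range as a covariate (574 higher, 351 lower; 470 genes shared) and 2098 for the cardiac lobe alone (1619 higher, 479 lower; 2010 shared). After scaling to one interquartile range 1776 were higher, and after centring on the median 3542 were lower. Lower calls numbered 3749 over every probe set, 511 when genes below the median level were left out, and 1071 without the day 56 pneumonectomy whole lung array. Leaving out each condition in turn gave 3503 to 7926 calls, 2564 to 5185 of them higher and 939 to 2741 lower; the ends were without day 14 and without day 7. The cardiac lobe count of 4020 became 2499 with no condition term, 2486 with the small RNA covariate and 2098 from its own 14 arrays; the medial count of 4500 became 2986 with no condition term, 2779 after scaling and 769 with the small RNA covariate. The early comparison stayed at 0 after scaling and without the sham. The difference of the array medians, -0.09, turned to 0.053 over probe sets with 1 symbol (exact p = 0.0312) and to 0.092 over the brighter probe sets (exact p = 0.0156). The difference in interquartile range kept its sign and p under both. The cause of these changes was not tested.

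Of the named genes, 94 kept direction and call with averaged probe sets, 94 with a trend and robust prior, and 93 without the 2 arrays that stood apart. With the small RNA mean as a covariate, which includes Snora69 and the other named small RNAs themselves, 29 did. Under it these turned: Ociad2 to -0.15, Tff2 to 0.087, Snora69 to 0.80, Mir6516 to 0.27, Mir341 to 2.5e-05, Gprc5a to -0.13, Emcn to -0.16, Nostrin to -0.062, Eif4a1 to -0.16, Rfc4 to -0.58, Hoxa4 to 0.16, Mb to 0.27, Lyst to -0.41 and Bcl2l11 to -0.063. With the interquartile range as a covariate 34 kept both, and these turned: Eif4a1 to -0.042, Rfc4 to -0.33, Hoxa4 to 0.015, Mb to 0.16, Lyst to -0.33 and Bcl2l11 to -0.029. Eif4a1 also turned after scaling (-0.074), Mb for the medial lobe alone (0.041) and without the sham (0.013; -0.17 at the lowest without another condition), and Lyst after quantile normalization (-0.0087) and cyclic loess (-0.015). Mb and Lyst were not called for lobes against whole lung as deposited either.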

Other observations

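Genes of the circadian clock were not described above. Of 16 measured, 5 were higher in the lobes and Hlf was lower (-0.36), beside 37.4% of genes higher in the 8th decile of brightness, which holds the median level of the list. The median difference was 0.18 and ran from -0.19 at day 7 to 0.54 at day 56 after pneumonectomy. Bhlhe41, Nr1d2, Clock, Cry2 and Tef were the members called higher, by 0.31, 0.26, 0.25, 0.20 and 0.18. Without day 14, 28 or 56 after pneumonectomy no member was called higher, and without the sham 1. The labels give no time of day for the samples.

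Of 19 immediate early genes 2 were higher, beside 41.4% in the 9th decile of brightness. Their median of 0.15 ran from -0.38 at day 3 to 0.76 in the sham. Of 15 heat shock genes 2 were higher, beside 39.1% in the brightest decile, with a median of 0.08. Hypoxia and glycolysis genes had 2 of 15 higher and 1 lower, with a median of 0.01, and interferon response genes 2 of 15 higher and 2 lower, with a median of -0.02. Fibroblast and matrix genes had 2 of 26 higher and 2 lower, with a median of -0.0034. In the deciles of the hypoxia, interferon and fibroblast lists 37.4%, 27.1% and 41.4% of genes were higher, and 3.71%, 6.47% and 3.71% lower. Of 16 smooth muscle genes Mylk and Hhip were higher, by 0.19 and 0.38; none was called without day 3, 14 or 56 after pneumonectomy or without the sham, and 5 were without day 0 or day 7. Nerve genes had 2 of 17 higher and 3 lower, beside 5.72% higher and 19.9% lower in the 4th decile of brightness. Mast cell and basophil genes had 3 of 11 higher and 2 lower, beside 1.65% higher and 16.4% lower in the 3rd decile. Replication-dependent histones had 6 of 22 lower and none higher, with a median of 0.01, beside 6.47% lower and 27.1% higher in the 6th decile. Of 15 monocyte and interstitial macrophage genes Ace was higher (0.54) and Plac8 lower (-0.55), beside 41.4% higher and 3.71% lower in the 9th decile. Of 9 neuroendocrine genes Chgb was lower (-0.14), beside 19.9% lower in the 4th decile. Of 163 vomeronasal receptor genes 2 were lower and none higher, beside 4.11% lower in the dimmest decile. Leaving out single conditions also moved other small counts by over 1.5 times. Without day 3, 5 immediate early genes were higher and 3 interferon genes; without day 0, 4 heat shock genes were higher, and 1 without day 3, 14, 28 or 56 or the sham. Without day 7, 5 fibroblast genes were higher and 6 lower, 6 nerve genes were lower, 4 monocyte genes were lower and 11 vomeronasal receptor genes were lower. The neuroendocrine call was lost without day 3, 7 or 14 or the sham, no nerve gene was higher without day 3 or 14 or the sham, and no fibroblast gene was higher without these or day 56 after pneumonectomy.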
